A study of Homo sapiens with 8 samples.

Results

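Metallothioneins and the genes that handle zinc around them were followed across the 8 libraries of a NAT10 knockdown in HepG2 cells. The 8 genes were taken by name from the 86369 rows of the deposited count table: the metallothioneins MT1E, MT1F, MT1G, MT1M, MT1X and MT2A, their transcription factor MTF1, and the zinc exporter SLC30A1. All 8 had a row, and 7 of them were among the 13840 genes tested. MT1M was below the filter on low counts.

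HepG2 is an established line of hepatocellular carcinoma cells, and all groups here came from that single line. Cells received a short interfering RNA against NAT10 (siNAT10) or a negative control siRNA (siCtrl) by lipofection, and RNA was taken 2 days later. NAT10 encodes an RNA cytidine acetyltransferase. Each group had 4 libraries, of which replicates 1 and 2 carried the label batch 1 and replicates 3 and 4 the label batch 2. What a batch stands for (a culture, a transfection or a sequencing run) is not given in the labels. The labels do not say that the libraries came from separate cultures, so p-values measure only the spread between these libraries.

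Metallothioneins are small, cysteine-rich proteins that bind zinc, copper and cadmium and buffer the free zinc of the cell. Their genes are induced by zinc through MTF1, a zinc-finger transcription factor that binds metal response elements, and in liver also by glucocorticoids and by inflammatory cytokines. SLC30A1 (ZnT1) carries zinc out of the cell across the plasma membrane, and its gene is also a target of MTF1.

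The libraries were made from the 3' ends of polyadenylated RNA, so a count stands for a transcript end and is not scaled by transcript length. The unit of level is CPM: each count was divided by its library's size after TMM scaling, and all libraries were brought to one total. Library totals ran from 9731718 to 27977110 counts, with 19155 to 21825 genes detected by at least 1 count. Batch was the main axis of the data, with 38.6% of the variance of log2 CPM on the component that split the batches. NAT10 stood at 44.7, 39.2, 77.8 and 48.9 CPM in siCtrl replicates 1 to 4 and at 13.1, 12.2, 20.1 and 22.3 CPM in siNAT10 replicates 1 to 4, so every siNAT10 library was below every siCtrl library. Hepatocyte markers were abundant, with a summed level of 18000 to 20510 CPM in siCtrl and 13500 to 15870 CPM in siNAT10. Of these 11 markers, APOB had at most 7 counts in a library. Fibroblast markers summed to at most 0.115 CPM, with 3 of 4 at 0 in every library, and endothelial markers to at most 0.797 CPM. Blood cell markers summed to between 1.55 and 2.81 CPM, with 3 of 4 at 0.

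MT2A made up most of the metallothionein counts. In siCtrl libraries the mean level was 221.9 ± 19.1 CPM for MT2A, 45.2 ± 13.0 CPM for SLC30A1 and 42.7 ± 17.1 CPM for MT1E (SD, n = 4). Lower in the order came MTF1 at 17.9 ± 6.99 CPM, MT1G at 14.4 ± 3.65 CPM and MT1F at 9.89 ± 2.00 CPM (SD, n = 4). SLC30A1 and MT1E did not differ beyond their spread in siCtrl, nor did MTF1 and MT1G, while the libraries of MT1G and MT1F did not overlap. MT1X had few counts, at 0.794 ± 0.286 CPM, and MT1M hardly any, with 3, 3, 1 and 0 counts in siCtrl and 1, 0, 0 and 0 counts in siNAT10. A total of 3 counts, the limit that a count of 0 allows, corresponded to between 0.104 and 0.293 CPM, for counting error only. No fold is given for MT1M for that reason.

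Of 20 metallothionein rows summed over, 10 had a count in some library. Outside the 6 named metallothioneins these were MT1A with at most 2 counts in a library, MT1B with at most 5, MT1H with at most 2, and MT1HL1 with 1. MT3 and MT4, known from brain and from squamous epithelium, had no count in any library. Most metallothionein counts thus came from MT2A, MT1E, MT1G and MT1F. A low row in this table need not mean a weakly expressed gene: APOB, which HepG2 cells are known to express, also had a near-empty row.

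The 6 metallothioneins lie in one cluster on chromosome 16. On GRCh38 with GENCODE 44 annotation, MT2A (ENSG00000125148) spans chr16:56608584-56609497 on the plus strand and MT1E (ENSG00000169715) chr16:56625475-56627112 on the plus strand. MT1F (ENSG00000198417) spans chr16:56657731-56660698 on the plus strand, and MT1G (ENSG00000125144) chr16:56666730-56668065 on the minus strand. MT1M (ENSG00000205364) spans chr16:56632659-56633981 and MT1X (ENSG00000187193) chr16:56682470-56684196, both on the plus strand. MTF1 (ENSG00000188786) lies at chr1:37809574-37859592 and SLC30A1 (ENSG00000170385) at chr1:211571568-211579161, both on the minus strand.

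Because the cluster's genes are close copies, the last 300 bases of each transcript were compared with the rest of the genome. Windows of 50 bases repeated in the genome made up 18.7% of those of MT1G, 14.7% of MT2A and 13.9% of MT1M. They made up 12% of MT1X, 5.6% of MT1F and 2.0% of MT1E. No window of 75 or 100 bases was repeated in the genome for any of the 8 genes. Windows of MTF1 and SLC30A1 were not repeated at any of the 3 lengths. Windows that span a splice junction do not lie unbroken at their own gene. A lone match of such a window elsewhere was not counted, so the shares at all 3 lengths may be too low. How the authors' counting treated reads that map to several places is not given in the sources used here. Values of the metallothioneins are therefore uncertain in that respect, MT1F included, and the shares do not rank them. An annotated gene, ENSG00000259827, also has an exon on the same strand over the last 300 bases of MT1X, and its own row held no count. Reads that fall in both could have been dropped, so the MT1X level is uncertain.

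The regions before the transcription starts are shown for MT2A, MT1X and SLC30A1, the metallothionein with the most counts, one with few counts and the exporter. They were searched for letter matches to the core of the element that MTF1 is known to bind. The 250 bases before the start come from RefSeq (GRCh38.p14) and run 5′ to 3′ on the gene's own strand. They are chr16:56608334-56608583 for MT2A, chr16:56682220-56682469 for MT1X, and chr1:211579162-211579411 on the minus strand for SLC30A1. Capitals mark matches to the metal response element core, searched as TGCACNC or TGCGCNC on both strands, where a match on the other strand reads as its reverse complement.
MT2A: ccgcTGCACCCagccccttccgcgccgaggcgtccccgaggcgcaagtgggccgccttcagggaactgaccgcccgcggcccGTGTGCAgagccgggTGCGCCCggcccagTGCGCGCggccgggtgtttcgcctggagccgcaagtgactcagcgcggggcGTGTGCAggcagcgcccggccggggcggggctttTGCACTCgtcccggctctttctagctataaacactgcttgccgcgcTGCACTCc
MT1X: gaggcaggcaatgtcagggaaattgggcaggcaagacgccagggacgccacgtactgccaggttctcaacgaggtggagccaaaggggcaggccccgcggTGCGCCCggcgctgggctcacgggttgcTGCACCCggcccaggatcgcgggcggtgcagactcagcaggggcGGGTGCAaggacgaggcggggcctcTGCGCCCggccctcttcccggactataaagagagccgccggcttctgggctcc
SLC30A1: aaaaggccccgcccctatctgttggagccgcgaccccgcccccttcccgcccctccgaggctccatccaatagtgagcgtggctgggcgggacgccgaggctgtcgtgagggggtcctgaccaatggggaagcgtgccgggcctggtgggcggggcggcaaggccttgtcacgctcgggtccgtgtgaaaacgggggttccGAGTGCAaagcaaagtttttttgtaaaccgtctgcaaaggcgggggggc

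The MT2A region held 7 core matches, 5 on the gene's strand and 2 on the other. MT1X held 4, and SLC30A1 held 1, on the other strand between 49 and 43 bases before the start. MTF1 itself held 0. The other entries for metallothioneins in the table were MT1H with 8 matches, MT1B with 3 and MT4 with 3, and the table matched 4 of the 8 genes (MT2A, MT1X, SLC30A1 and MTF1). Both MT2A and MT1X also held the TATA box letters TATAAA about 30 bases before the start, which neither SLC30A1 nor MTF1 did. Among the 35116 promoters of the table, 24.8% held at least 1 core match, 1.58% at least 3 and 0.12% at least 5, and 10.7% held TATAAA on either strand. A match describes the letters only, and no binding was measured here. MT1H and MT1B, which had 8 and 3 matches, had at most 5 counts in any library.

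**Figure D1:**
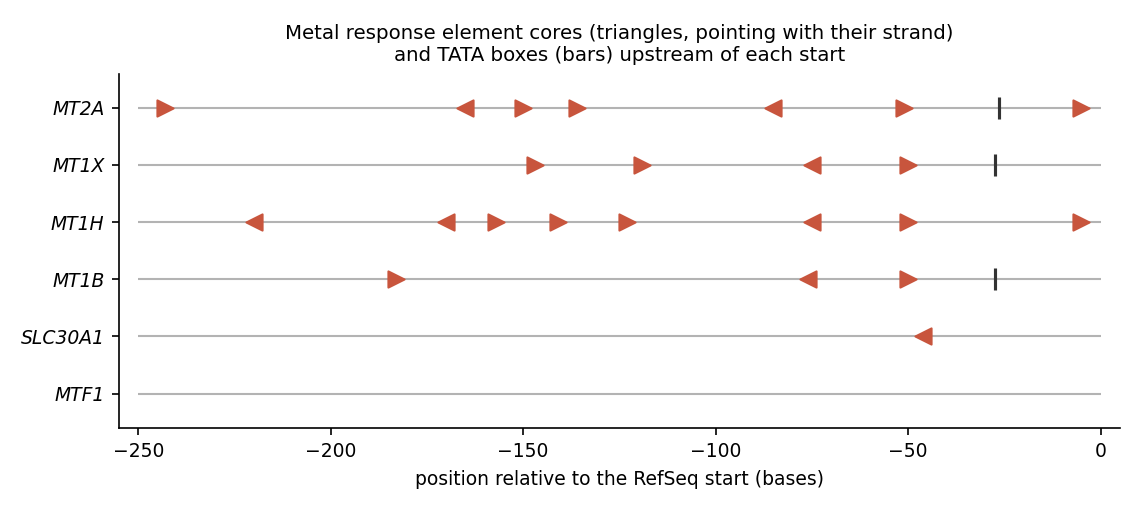
Positions of metal response element core matches (red triangles, pointing with their strand) and TATA box letters (black bars) in the 250 bases before the RefSeq start of 6 genes, with the distance to the start in bases on the horizontal axis. MT2A carries 7 core matches and MT1X 4, against 1 for SLC30A1 and 0 for MTF1.

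The first comparison asked how these transcripts changed when NAT10 was depleted. Several metallothioneins were lower after knockdown: MT2A fell to 65.6% of its siCtrl level, MT1E to 69.7% and MT1F to 50.4%, as fitted over both batches. MT1G, at 60.3%, missed the threshold. MTF1 and SLC30A1 had higher point estimates that were not called. Of the 7 genes tested, 3 were called and all 3 were lower, against 2.28% of all 13840 genes called in either direction by edgeR's quasi-likelihood test (Benjamini-Hochberg adjusted p under 0.05 over all genes, batch as a term). DESeq2 called 4 of the 7, against 4.98% of the genes to which it gave an adjusted p. An unadjusted p under 0.05 was found for 5 of the 7 and for 15.7% of all tested genes in edgeR. Without the batch term in the model, none of the 7 was called, with edgeR adjusted p of 0.13 for MT2A, 0.67 for MT1E and 0.28 for MT1F, 1106 of all genes at an unadjusted p under 0.05 and 15 called. The median log2 change of the 7 genes was -0.52, beside -0.0024 over all tested genes. The members and the gene lists were chosen with earlier results of these data known, so such shares and medians do not test the sets. In bulk RNA, less transcript per cell and fewer cells that carry it cannot be told apart. The summed hepatocyte markers were also lower in every siNAT10 library than in every siCtrl library. Most of that sum came from AHSG and ALB. Of 10 tested markers, 8 had lower estimates, of which 1 (TF) was called by edgeR. The other 2 (FGB at a log2 change of 0.37 and HNF4A at 0.09) had higher estimates without a call in edgeR. An unadjusted p under 0.05 in edgeR was found for 7 of the 10, FGB among them, beside 15.7% of all tested genes. DESeq2 called 3 of the 10, beside 4.98%. Their part in the metallothionein values was not tested.

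MT2A is the main metallothionein of most human cells. Its level was 200.8, 217, 247 and 223 CPM in siCtrl replicates 1 to 4 and 160.1, 136, 158 and 127 CPM in siNAT10 replicates 1 to 4. All 4 siNAT10 libraries lay below all 4 siCtrl libraries, in either batch. Groups of 4 against 4 failed to overlap for 5.40% of all tested genes, and among the 7 genes this held for MT2A and MT1F. The log2 change of MT2A was -0.61 (SE 0.109, 95% interval -0.84 to -0.38, edgeR adjusted p = 0.0089). Its call was lost without siNAT10 replicate 2 (adjusted p = 0.059) and within batch 1 (0.10) or batch 2 (0.33) alone, where the log2 changes were -0.50 and -0.72.

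MT1E was the next metallothionein by counts. It stood at 26.0, 30.03, 58.5 and 56.4 CPM in siCtrl replicates 1 to 4 and at 22.3, 20.3, 35.5 and 38.1 CPM in siNAT10 replicates 1 to 4. Over all 8 libraries the groups overlapped, with batch 1 low in both, but within each batch both siNAT10 libraries were below both siCtrl libraries. Such a separation in one direction within both batches was seen for 14.7% of all tested genes, and among the 7 for MT2A, MT1E, MT1F and SLC30A1. The siNAT10 mean was 76.0% of the siCtrl mean in batch 1 and 64.03% in batch 2. The fitted log2 change was -0.52 (SE 0.106, 95% interval -0.75 to -0.30, edgeR adjusted p = 0.018). This call was lost without siCtrl replicate 2 (adjusted p = 0.069), siNAT10 replicate 2 (0.074) or siNAT10 replicate 3 (0.071), and within batch 1 (0.24) or batch 2 (0.41) alone.

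MT1F had the largest fitted change of the 7. Its siCtrl replicates 1 to 4 were at 7.05, 9.95, 11.2 and 11.4 CPM and its siNAT10 replicates 1 to 4 at 2.85, 4.66, 6.98 and 5.67 CPM. The groups did not overlap, though siCtrl replicate 1 of batch 1 was only just above siNAT10 replicate 3 of batch 2. The log2 change was -0.99 (SE 0.185, 95% interval -1.38 to -0.60, edgeR adjusted p = 0.011). Its call held in all 8 fits that left out a library, with adjusted p from 0.017 to 0.049, and in batch 1 alone (0.026) but not in batch 2 alone (0.48).

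MT1G, the 1 of the 6 metallothioneins on the minus strand, had levels of 12.7, 19.8, 13.3 and 11.9 CPM in siCtrl replicates 1 to 4 and 6.84, 13.1, 7.45 and 7.14 CPM in siNAT10 replicates 1 to 4. Replicate 2 was the highest library of each group, and the siNAT10 one of these put the groups in overlap. In batch 2 both siNAT10 libraries were below both siCtrl libraries. The log2 change was -0.73 (SE 0.19, 95% interval -1.13 to -0.33, edgeR adjusted p = 0.056). The gene passed the threshold under 4 of 17 alternatives. It did so without siNAT10 replicate 2 (log2 -0.97, edgeR adjusted p = 0.035) and with the replicate number as a block (log2 -0.76, edgeR adjusted p = 0.0052). It also did so without a filter on low counts (log2 -0.73, edgeR adjusted p = 0.00055) and by the DESeq2 Wald test (adjusted p = 0.022). Under the remaining alternatives it was not called, with an edgeR adjusted p of up to 0.48.

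MT1X had 12, 13, 24 and 12 counts in siCtrl replicates 1 to 4 and 6, 11, 7 and 11 counts in siNAT10 replicates 1 to 4. In CPM the groups overlapped, at 0.436 to 1.12 against 0.328 to 1.08. Its log2 change of -0.50 had a 95% interval from -1.35 to 0.36 (edgeR adjusted p = 0.61), which includes both the size seen for MT2A and no change.

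MTF1, the transcription factor, was at 12.7, 14.3, 16.7 and 28.1 CPM in siCtrl replicates 1 to 4 and at 17.7, 14.9, 22.3 and 32.7 CPM in siNAT10 replicates 1 to 4. The groups overlapped over all libraries and within batch 2, where the replicates of one group stood far apart. The log2 change was 0.29 (SE 0.161, 95% interval -0.05 to 0.63, edgeR adjusted p = 0.42), and it was not called under any of 17 alternatives.

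SLC30A1, the zinc exporter, was at 35.5, 32.7, 54.7 and 57.9 CPM in siCtrl replicates 1 to 4 and at 43.2, 40.7, 64.6 and 67.8 CPM in siNAT10 replicates 1 to 4. Within each batch both siNAT10 libraries were above both siCtrl libraries, as 14.7% of all tested genes did in one direction or the other, while over all 8 the groups overlapped, with batch 1 low in both. The siNAT10 mean was 123% of the siCtrl mean in batch 1 and 118% in batch 2. The log2 change was 0.27 (SE 0.095, 95% interval 0.06 to 0.47). The unadjusted p was 0.0128 and the edgeR adjusted p 0.17, and the gene was not called under any of 17 alternatives (adjusted p from 0.09 to 0.87).

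**Figure D2:**
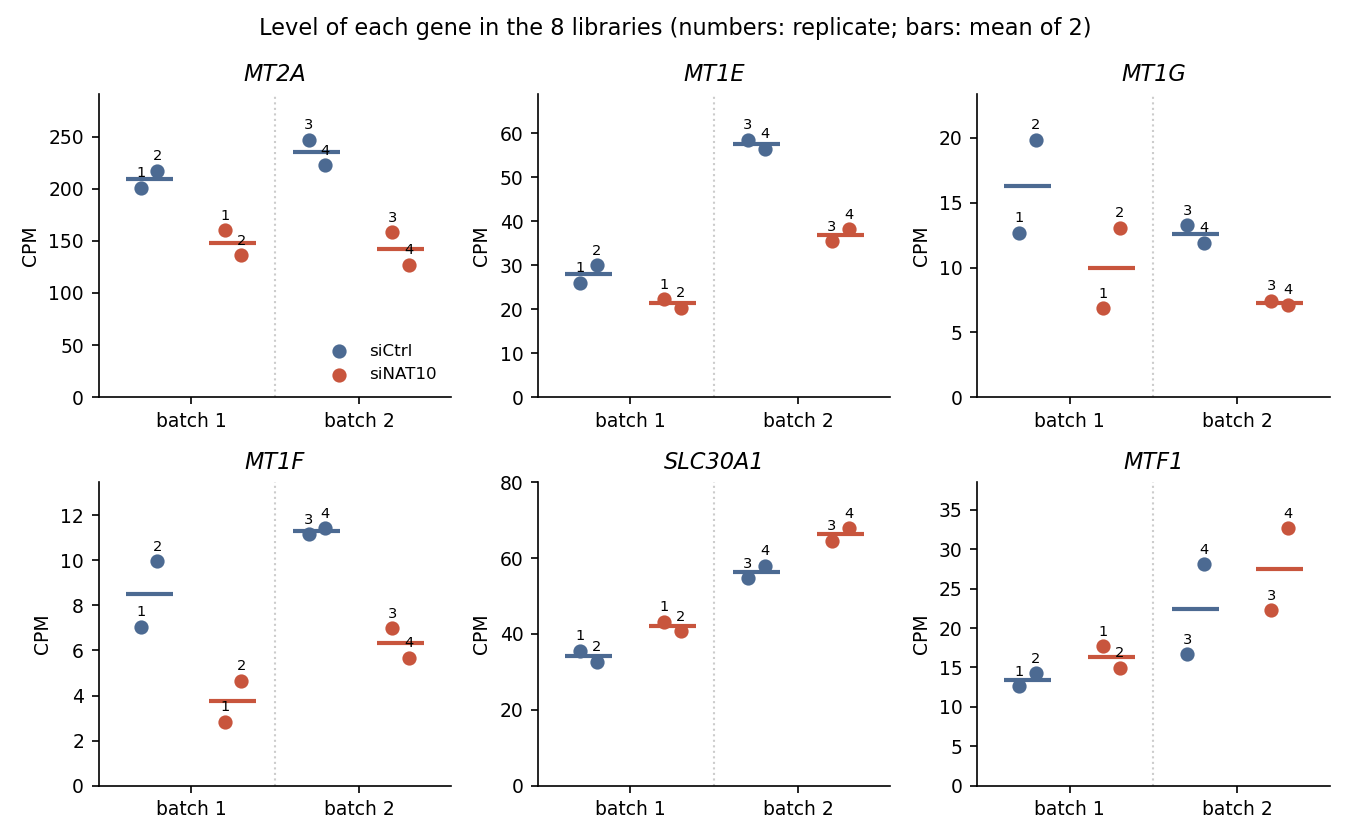
Level in CPM (vertical axis, linear, from 0) of 6 genes in each library, with siCtrl in blue, siNAT10 in red, the replicate number above each point and a bar at the mean of the 2 libraries of a group and batch. The red points lie below the blue ones within both batches for MT2A, MT1E and MT1F, and above them for SLC30A1, while MT1E and SLC30A1 are higher throughout batch 2.

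Summed over the 20 rows, metallothionein counts came to 247, 278, 331 and 303 CPM in siCtrl replicates 1 to 4. In siNAT10 replicates 1 to 4 they came to 193, 174, 209 and 179 CPM. The groups did not overlap, and their means were 290.0 ± 35.7 CPM for siCtrl against 189 ± 15.4 CPM for siNAT10 (SD, n = 4), the latter 65.1% of the former. MT2A alone stood at 65.5% of its siCtrl mean. The fitted decreases of MT2A, MT1E, MT1G and MT1F had overlapping 95% intervals, and differences between the genes in the size of the decrease were not tested.

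The other genes of zinc and copper handling were mostly not called. Of 10 zinc exporters of the SLC30 family, 7 were tested and 0 were called in either direction by edgeR or DESeq2, with 3 at an unadjusted p under 0.05 in edgeR, SLC30A1 included, and a median log2 change of 0.12. Over all tested genes, 2.28% were called and 15.7% had such an unadjusted p. SLC30A10, which carries manganese, had the largest of these changes at 0.42 (edgeR adjusted p = 0.21). Of 14 zinc importers of the SLC39 family, 9 were tested and 1 was called. SLC39A14 (ZIP14), a hepatocyte importer of zinc, iron and manganese, fell from 138 ± 6.81 to 101.3 ± 6.51 CPM (SD, n = 4; log2 -0.45, SE 0.096, edgeR adjusted p = 0.022). Of 12 copper-handling genes, all tested, 1 was called. CP, which encodes the copper-carrying plasma ferroxidase ceruloplasmin, fell from 62.4 ± 6.89 to 31.6 ± 5.10 CPM (SD, n = 4; log2 -0.99, SE 0.125, edgeR adjusted p = 0.00057).

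Genes that respond to the other known inducers of metallothioneins were counted in the same way, and a part of these inducers in the metallothionein values was not tested. Of 12 glucocorticoid-responsive genes 10 were tested and 0 were called by edgeR, with 2 at an unadjusted p under 0.05, 1 called by DESeq2 and a median log2 change of 0.04. Of 11 oxidative stress genes 10 were tested and 0 were called by edgeR or DESeq2, with 4 at an unadjusted p under 0.05 in edgeR and a median of 0.14. Of 15 acute phase genes that respond to interleukin-6, 9 were tested and 1 was called by edgeR (DESeq2 called 3): FGG, which encodes the fibrinogen gamma chain, rose from 177 ± 11.7 to 246 ± 21.8 CPM (SD, n = 4; log2 0.48, edgeR adjusted p = 0.020). The median of the 9 was 0.19, and 4 of them had an unadjusted p under 0.05 in edgeR. For comparison, edgeR called 2.28% of all tested genes and found an unadjusted p under 0.05 for 15.7%, and DESeq2 called 4.98%.

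The second comparison set batch 2 against batch 1, with the siRNA as a term. MT1E, MT1F, MTF1 and SLC30A1 were higher in batch 2, by 1.89-fold, 1.47-fold, 1.67-fold and 1.61-fold as fitted, while MT2A was at 1.04-fold and not called. Thus 4 of the 7 tested genes were called, all higher, against 25.3% of all tested genes called in either direction by edgeR's quasi-likelihood test. The median log2 difference of the 7 was 0.69, beside -0.000059 over all genes. Here too the choice of members with earlier results known means that these values do not test the set. The 2 batches did not overlap for 22.7% of all tested genes, and among the 7 this held for MT1E and SLC30A1.

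MT1E ranged from 20.3 to 30.03 CPM in the 4 libraries of batch 1 and from 35.5 to 58.5 CPM in those of batch 2. Its log2 difference of 0.92 (SE 0.107, 95% interval 0.69 to 1.14, edgeR adjusted p = 2.2e-05) was called under all 16 alternatives. SLC30A1 ranged from 32.7 to 43.2 CPM in batch 1 and from 54.7 to 67.8 CPM in batch 2. Its log2 difference was 0.69 (SE 0.095, 95% interval 0.49 to 0.89, edgeR adjusted p = 9.7e-05), also called under all 16. MT1E and SLC30A1 were thus higher in batch 2 together, while their knockdown estimates lay on opposite sides of 0, that of SLC30A1 without a call.

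MTF1 was higher in batch 2 by a log2 difference of 0.74 (SE 0.162, edgeR adjusted p = 0.0034), with ranges of 12.7 to 17.7 CPM in batch 1 and 16.7 to 32.7 CPM in batch 2 that overlapped. Its call was lost in the siCtrl libraries alone (adjusted p = 0.055). MT1F had a log2 difference of 0.56 (SE 0.184, edgeR adjusted p = 0.035), and its batches overlapped, from 2.85 to 9.95 CPM in batch 1 and from 5.67 to 11.4 CPM in batch 2. Its call was lost under 8 of 16 alternatives, among them the siCtrl libraries alone (adjusted p = 0.24), the siNAT10 libraries alone (0.16), and the fits without siCtrl replicate 1 (0.12), siNAT10 replicate 1 (0.097), siCtrl replicate 4 (0.063) or siNAT10 replicate 3 (0.11).

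MT2A did not follow MT1E between batches. Its log2 difference was 0.06 (SE 0.109, 95% interval -0.17 to 0.29, edgeR adjusted p = 0.74), so a rise of the fitted size for MT1E lies outside this interval. The difference between the genes themselves was not tested. MT1G had a point estimate in the other direction, -0.41 (SE 0.19, 95% interval -0.81 to -0.004, edgeR adjusted p = 0.13), and it passed the threshold without siNAT10 replicate 1 (0.04). MT1X had a log2 difference of 0.95 (SE 0.403, 95% interval 0.09 to 1.80, edgeR adjusted p = 0.096) from 6 to 24 counts a library.

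**Figure D3:**
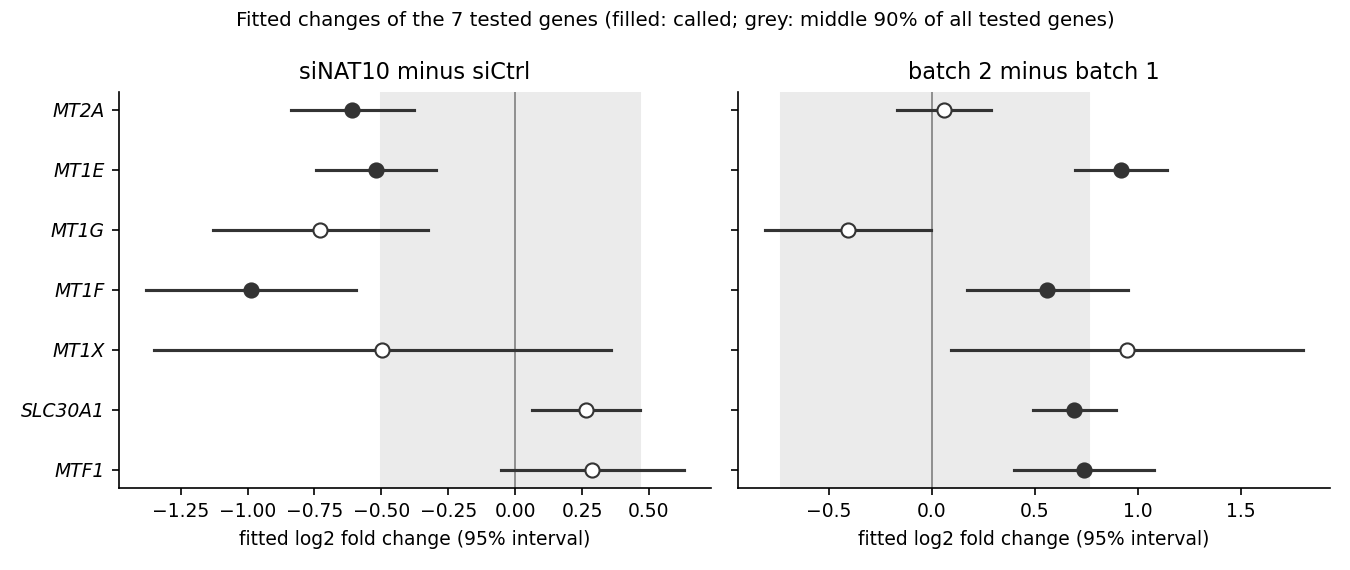
Fitted log2 changes (horizontal axis) with 95% intervals for the 7 tested genes, siNAT10 minus siCtrl on the left and batch 2 minus batch 1 on the right, where filled points are called and grey bands hold the middle 90% of all tested genes. On the left the 5 metallothioneins lie below 0 and SLC30A1 and MTF1 above it, while on the right MT2A lies near 0 and MT1E, MT1X, MTF1, SLC30A1 and MT1F lie above it.

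MT1E made up a larger share of the metallothionein counts in every batch 2 library than in any batch 1 library. It took 10.5%, 10.8%, 11.6% and 11.6% of metallothionein counts in the batch 1 libraries (siCtrl replicates 1 and 2, then siNAT10 replicates 1 and 2). In batch 2 it took 17.7% and 18.6% in siCtrl replicates 3 and 4 and 17.0% and 21.3% in siNAT10 replicates 3 and 4. Exact (Clopper-Pearson) 95% intervals reached at most 12.7% in batch 1 and began at 15.6% or above in batch 2, for counting error only. MT2A took 81.2%, 78.1%, 83.1% and 77.9% in the same order in batch 1 and 74.6%, 73.4%, 75.8% and 70.9% in batch 2, again without overlap. Shares of one pool are tied, so a larger MT1E share by itself lowers that of MT2A, and this is not a separate result. The MT2A level was at 1.04-fold between batches and not called.

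MT1G took from 3.55% to 7.49% of metallothionein counts, with the highest shares in replicate 2 of both groups, at 7.13% in siCtrl and 7.49% in siNAT10. MT1F took from 1.48% in siNAT10 replicate 1 to 3.77% in siCtrl replicate 4. Over all 8 libraries the siCtrl and siNAT10 shares overlapped for each of MT2A, MT1E, MT1G and MT1F.

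**Figure D4:**
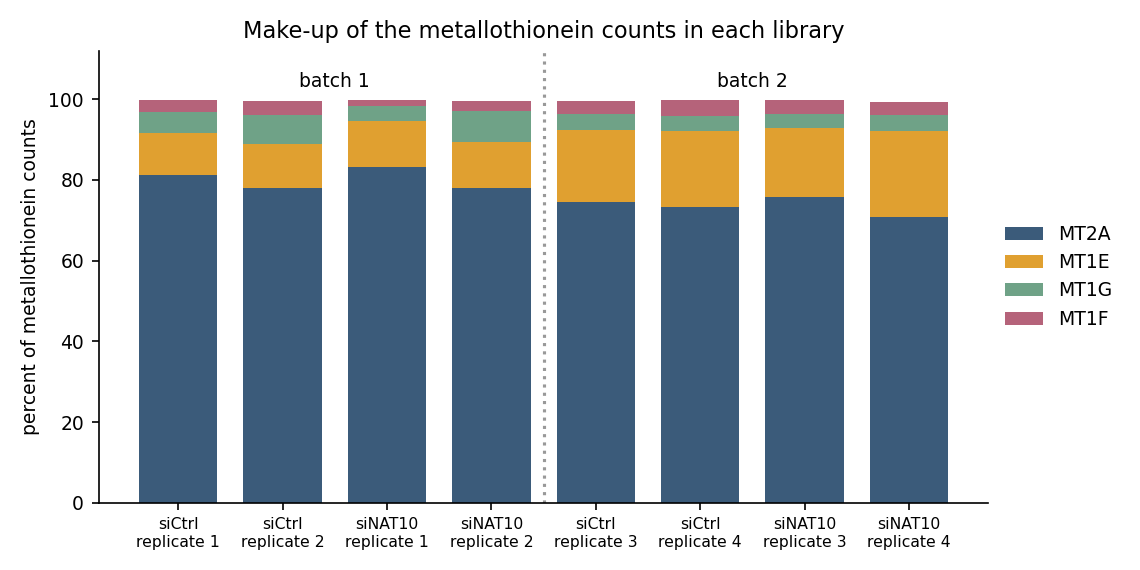
Share of metallothionein counts (vertical axis, percent, from 0) taken by MT2A, MT1E, MT1G and MT1F in each library, ordered by batch and group, where the small remainder is MT1X and rows with few counts. The MT1E share is 10.5% to 11.6% in batch 1 and 17.0% to 21.3% in batch 2, in both siRNA groups.

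The counts of zinc, copper and stress genes called between batches stand beside 25.3% of all tested genes, and nothing particular to a list is read from them. Among the 7 tested zinc exporters 2 were higher, SLC30A1 itself and SLC30A3 (log2 0.76, edgeR adjusted p = 0.0018), and 0 lower. Among the 9 zinc importers 1 was higher, SLC39A13 (0.29, adjusted p = 0.037), and 2 were lower, SLC39A5 (-0.42, 0.012) and SLC39A10 (-0.51, 0.024). Among the 12 copper-handling genes 5 were higher and 1 lower, led by SCO2, a copper chaperone of cytochrome oxidase (0.92, edgeR adjusted p = 8.7e-05). The 10 oxidative stress genes had 5 higher, led by SLC7A11, the cystine transporter (1.01, edgeR adjusted p = 6.1e-05), and 1 lower, OSGIN1 (-0.66, 0.00054). The 10 glucocorticoid-responsive genes split into 2 higher, SGK1 (1.48) and TSC22D3 (1.19), and 4 lower, led by CEBPD (-1.82) and ANGPTL4 (-1.42). The 9 acute phase genes had 0 higher and 3 lower, led by SOCS3 (-2.78), the feedback inhibitor of cytokine signalling.

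Whether the knockdown response depended on the batch was tested by an interaction term. In edgeR it called 0% of the 13840 genes, 421 of which (3.04%) had an unadjusted p under 0.05, and DESeq2 called 1 gene. None of the 7 genes was called by either tool, and their unadjusted p ranged from 0.264 for MT1E to 0.945 for MTF1. For MT2A the interaction was -0.22 (95% interval -0.69 to 0.25) on the log2 scale, for MT1E -0.25 (-0.71 to 0.21) and for MT1F 0.32 (-0.49 to 1.12). For SLC30A1 it was -0.06 (-0.49 to 0.36). For MT2A and MT1E the intervals reach a decrease in batch 2 that is larger than in batch 1 by the size of the fitted change, but not the loss of the decrease there. For MT1F the interval reaches a decrease in batch 2 that is smaller by the size of the fitted change, but not one larger by that size. Its upper end fell just short of cancelling the log2 change of -1.14 found for MT1F in batch 1 alone.

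MT2A, MT1E, MT1G and MT1F varied together across libraries once the batch means had been removed. Over the 8 libraries, which share the siRNA groups and their own depth, Pearson's r of log2 CPM was 0.933 between MT2A and MT1E and 0.947 between MT1G and MT1F. The other pairs of these genes had lower r, from 0.705 (MT2A with MT1G) to 0.805 (MT1F with MT2A or with MT1E). SLC30A1 ran against them, with r of -0.89 with MT2A, -0.874 with MT1E, -0.91 with MT1G and -0.973 with MT1F. With the same metallothioneins MTF1 had r from -0.625 (MT2A) to -0.425 (MT1E), and with SLC30A1 it had 0.635. These values describe libraries that differ by siRNA and carry no test.

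The genes most like the summed metallothionein level by the same measure, among 8664 genes with a mean of at least 8 CPM, were TUBA1A (r = 0.995), PPM1B (0.992), PABIR2 (0.987), PLPP6 (0.984) and DPCD (0.982). TUBA1A, an alpha-tubulin, had a knockdown log2 change of -1.07, while PPM1B and DPCD had -0.25 and -0.18 and were not called. At the other end stood PTPRG (-0.992), PAN2 (-0.984), AP1AR (-0.979), PRR5 (-0.978) and DLG1 (-0.976). In all, 186 genes had r above 0.9 and 129 below -0.9, which is 2.15% and 1.49% of the genes compared.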

How the data were processed

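HepG2 RNA was profiled by QuantSeq 3' mRNA-seq in 4 siCtrl and 4 siNAT10 libraries. The deposited values are whole-number counts per gene, made by the authors with Trim Galore 0.6.10, cutadapt 3.5, STAR 2.7.9a on GRCh38 and featureCounts, per the submitters' processing notes. The kit orientation is given as FWD in the series text and REV in the sample protocols. The annotation release, strand setting and handling of multi-mapped reads are not given in the sources used here. Of 86369 rows, 61458 matched GENCODE 44, and 0 columns were left unused. The sample descriptions name a matrix with a SLAM_ prefix that the table used here does not carry, and columns were matched to libraries by the column names those descriptions give.

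The members and lists were chosen with earlier results of these data known. In R 4.3.3, edgeR 4.0.16 (filterByExpr with a minimum count of 10, TMM, quasi-likelihood F test with batch and siRNA terms) was fitted to all 13840 genes that passed. Calls rest on Benjamini-Hochberg adjustment over those genes with a threshold of 0.05. The standard error came from the F statistic. The code was tested on simulated data. Alternatives were other scalings and filters, DESeq2 1.42.0, no batch or siRNA term, a replicate block, single batches or groups, and each library left out. The named genes were the 8 members, other metallothionein rows, NAT10, called genes of the lists with at most 2 of the largest changes each, and the 5 genes most and least like the metallothionein sum (log2 CPM, prior count 2). SLC30A10, which was not called, was named as the largest change of its list.

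Both groups share replicate numbers. Deviations of same-numbered libraries from their group means correlated at 0.39, 0.38, 0.45 and 0.36, and at -0.062 in batch 1 and 0.17 in batch 2 once batch was removed. Within a group and batch, the libraries differed with a chi-square per degree of freedom of 15.2 to 24.4, so no library was a copy of another. Counts carry no molecular identifiers in the labels, so depth statements cover counting error only.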

Additional observations from a re-analysis of the deposited data

Results flagged for a closer look

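MT1G stood apart in replicate 2 of both groups. In siCtrl, replicate 2 was at 19.8 CPM while the other 3 libraries lay between 11.9 and 13.3 CPM, a gap of 0.831 of the group's range. In siNAT10, replicate 2 was at 13.1 CPM while the others lay between 6.84 and 7.45 CPM, a gap of 0.902 of the range. Both exceeded Dixon's 95% limit for 4 samples. Among 32 groups of 4 examined, these 2 passed it, where chance gives about 1.6. Both libraries are in batch 1, and their MT2A, MT1E and SLC30A1 levels were not set apart by the same measure.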

How the results depend on the processing

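The knockdown comparison called 315 genes, of which 113 were higher and 202 lower, with 3 of the 7 tested members. Scaling by library size alone called 138 genes higher and 149 lower, and also 3 members. Without the batch term 15 genes and 0 members were called. Batch 1 alone gave 173 genes and 1 member. Batch 2 alone gave 0 genes and 0 members in edgeR, with 946 genes at an unadjusted p under 0.05. DESeq2 called 575 genes and no filter on low counts 595, with 4 members each. Leaving out 1 library gave from 75 to 286 genes. With the replicate block 454 genes and 4 members were called, MT1G being the only member whose call changed. No paired analysis was possible because each replicate number lies in 1 batch for the batch comparison. That comparison called 3500 genes and 4 members, against 1314 genes and 2 members in siCtrl alone and 1188 genes in siNAT10 alone, each with fewer samples. The interaction called 0 genes, against 1 in DESeq2, 15 without a filter and from 0 to 2 with a library left out.

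On the log2 scale MT2A changed sign between batches in siNAT10 alone (-0.058), and interactions of members near 0 changed sign as well. For MTF1 this was -0.0026 without a filter and from -0.33 to 0.43 with a library left out, and for SLC30A1 0.0058 with library size alone. With a library left out, interactions ran from -0.48 to 0.43 for MT1G and from -0.22 to 0.75 for MT1X. Of the members' other values, 102 of 118 for the knockdown kept their side of the threshold and all 118 their direction, while 99 of 111 between batches kept both. The cause of these shifts was not tested. MT1X had few counts and a wide interval, and MT1M was not tested.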
